A study of Mus musculus with 8 samples.

Results

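Fatty acid uptake and binding in brown adipose tissue was followed through 10 genes: Lpl, Gpihbp1, Angptl4, Cd36, Slc27a1, Slc27a2, Slc27a4, Fabp3, Fabp4 and Fabp5. They were matched by symbol among the 23372 genes of the count table, taking the row with the highest total where a symbol had several, and all 10 passed the filter on low counts. Tissue came from 10-week-old C57BL/6 N mice. The 4 control mice (libraries 511, 514, 517 and 518) carried floxed Lsd1 alleles. The 4 knockout mice (512, 513, 515 and 516) carried floxed Lsd1 together with Ucp1-Cre, a recombinase driven by the promoter of the brown adipocyte gene Ucp1, so loss of Lsd1 and presence of Cre cannot be told apart. Other cells of the tissue, such as endothelium and macrophages, are not targeted by that promoter. The labels name separate mice but no litter, sex or batch, so tests speak only of the spread among these 8 mice.

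Brown fat takes up fatty acids from triglyceride-rich lipoproteins. Lipoprotein lipase (Lpl) is made by adipocytes, carried to the capillary surface by Gpihbp1, an anchoring protein of endothelial cells, and inhibited by Angptl4. The fatty acids released cross membranes with the help of Cd36, a scavenger receptor and fatty acid translocase, and of the Slc27 family, transport proteins that also have acyl-CoA synthetase activity. Inside the cell they are bound by small cytosolic carriers, the fatty acid binding proteins: Fabp4 is the adipocyte form, Fabp3 the heart and muscle form and Fabp5 the epidermal form, which macrophages and endothelium also express.

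The genome before the start of transcription is shown for Cd36, Slc27a4 and Slc27a2, the genes lower in knockout tissue for which a reference promoter was at hand. They were thus chosen by their result, and the windows of Slc27a1 and Fabp3, which were not called, were searched but are not printed. RefSeq promoter windows (GRCm38.p6, the patch level of the mm10 assembly) were found for 5 of the 10 genes, Cd36, Slc27a1, Slc27a2, Slc27a4 and Fabp3. The printed bases lie before the annotated start and run 5′ to 3′ on the strand of the gene. For Cd36 they are chr5:17835897-17836146, minus strand, ahead of the start shared by 2 of its shorter transcripts, inside an intron of the longer ones, and for Slc27a4 chr2:29802384-29802633, plus strand. For Slc27a2, whose window lies within an annotated exon, only the stretch around the match is shown, chr2:126552792-126552821, plus strand. Capitals mark the letters AGGTCA, the half-site of nuclear receptors such as PPAR gamma (here read on the opposite strand as TGACCT), the CCAAT box and the GC box GGGCGG.
Cd36: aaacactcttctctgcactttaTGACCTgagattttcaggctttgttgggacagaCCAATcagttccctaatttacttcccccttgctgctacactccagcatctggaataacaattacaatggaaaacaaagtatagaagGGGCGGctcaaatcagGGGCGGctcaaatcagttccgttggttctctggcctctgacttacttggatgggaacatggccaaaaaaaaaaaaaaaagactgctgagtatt
Slc27a4: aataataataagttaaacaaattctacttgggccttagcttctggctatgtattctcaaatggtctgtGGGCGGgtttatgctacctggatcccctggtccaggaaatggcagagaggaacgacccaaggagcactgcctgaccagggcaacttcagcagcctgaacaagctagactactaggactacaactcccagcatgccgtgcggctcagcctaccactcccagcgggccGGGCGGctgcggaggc
Slc27a2: gcaccacgccttTGACCTtttcaacgtggg
In the 250 bases before the start, both strands searched, the half-site stood at -228 to -223 in Cd36 and at -220 to -215 in Slc27a2, and these letters were not in the windows of Slc27a4, Fabp3 or Slc27a1. Of 32851 reference promoters 14.02% hold it. The exact direct repeat of PPAR, with 2 such half-sites spaced by 1 base, is found in 0.0335% of promoters and was in none of these windows. GC boxes were found at 2 positions each in Cd36, Slc27a4 and Slc27a2 and in 2 of the 3 windows of Slc27a1, beside 32.7% of all promoters with at least 1. A CCAAT box stood at -195 to -191 in Cd36 and in 2 of the 3 Slc27a1 windows, beside 33.8%. These matches describe the letters only.

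The labels were first checked on the targeted gene. Kdm1a, which encodes Lsd1, stood at 35.4 ± 1.52 CPM in controls (SD, n = 4) and 13.1 ± 0.711 CPM in knockouts (SD, n = 4), a log2 fold change of knockout over control (called the log2 difference from here on) of -1.43, with an adjusted p of 2.66e-05 by edgeR. CPM are counts per 1e6 counts of a library, scaled by TMM factors, and libraries held 33011022 to 38756920 counts over all rows. Brown fat markers were present in every library, with Ucp1 at 3143 to 5574 CPM in controls and 1202 to 1525 CPM in knockouts (log2 difference -1.70, edgeR adjusted p = 0.000477). The lipogenic genes Scd1 and Fasn took 1.30% to 8.42% and 2.25% to 3.82% of counts in controls, against 4.63% to 5.47% and 1.76% to 2.16% in knockouts. Replicates correlated at 0.963 to 0.981 among controls and 0.985 to 0.991 among knockouts (Pearson's r of log2 CPM across genes, which are not independent).

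In knockout tissue 5 of the 10 uptake and binding genes were lower and 0 were higher by edgeR's quasi-likelihood test with Benjamini-Hochberg adjustment over 14178 genes. Those lower were Slc27a2, Fabp4, Lpl, Cd36 and Slc27a4, with folds of control over knockout of 1.87, 1.66, 1.29, 1.29 and 1.21. Over all genes tested 34.4% were called, 15.4% higher and 18.9% lower. The median log2 difference of the 10 genes was -0.25, beside -0.01 over all genes. Levels did not overlap between the groups for 6 of the 10 (the 5 called genes and Angptl4), beside 35.5% of all genes. The count depended on how libraries were scaled to each other. Upper quartile factors gave 2 lower and 0 higher, and library sizes alone gave 2 lower (Fabp4 and Slc27a2) and 2 higher (Gpihbp1 and Angptl4). These scalings shift the median of all genes upwards by 0.103 and 0.198 on the log2 scale.

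**Figure D1:**
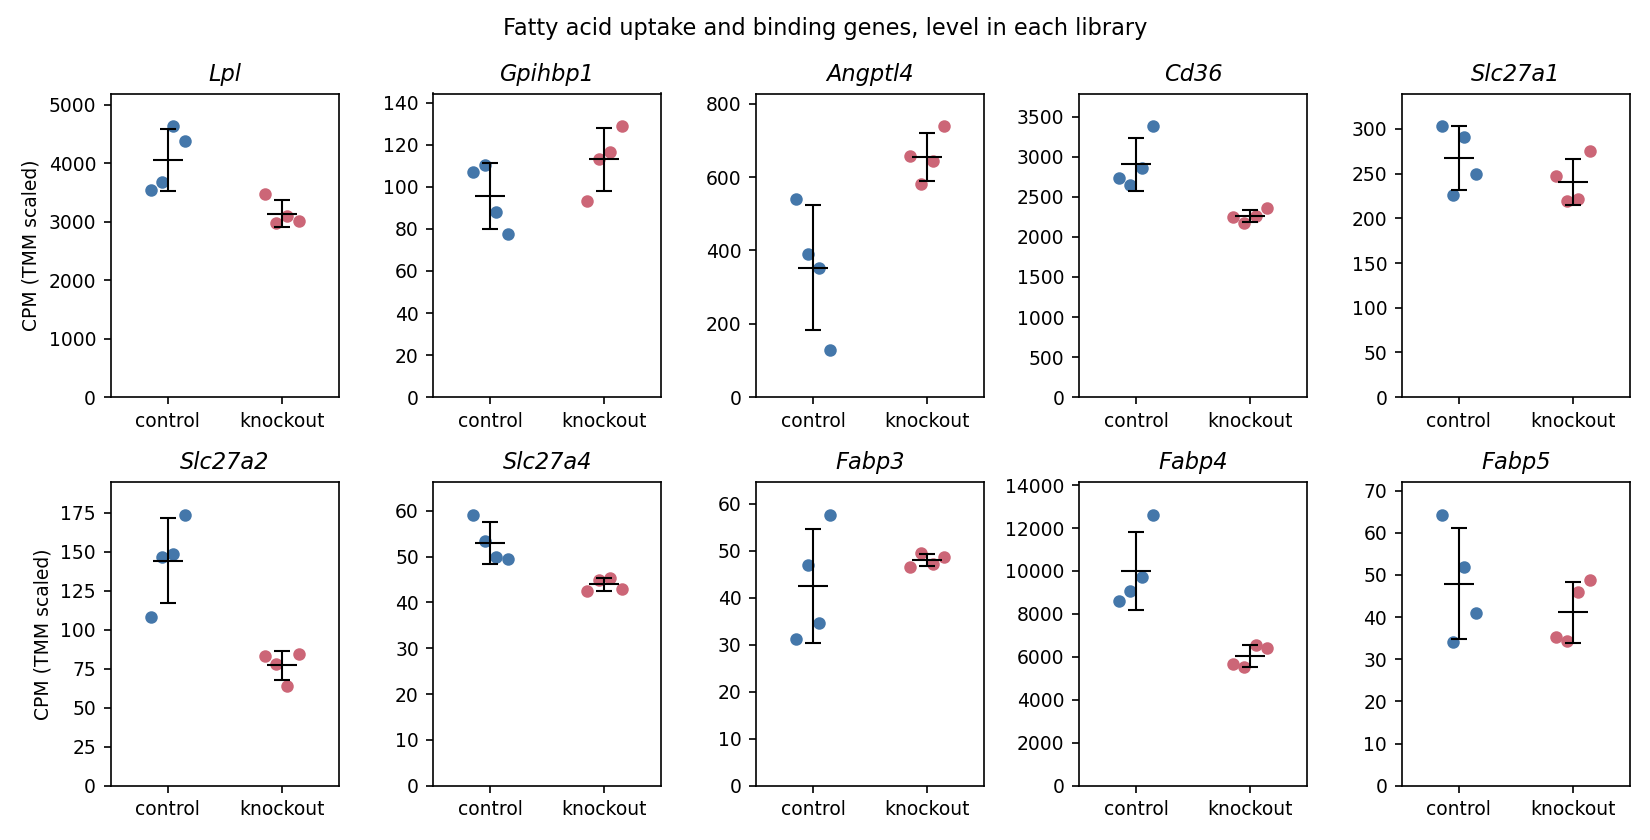
Level of each gene in each library, in CPM scaled by TMM factors on a linear axis from 0 (blue, 4 controls; red, 4 knockouts; bars, mean ± SD). For Slc27a2, Fabp4, Cd36, Lpl, Slc27a4 and Angptl4 the points of the groups do not overlap, while Gpihbp1, Fabp3, Fabp5 and Slc27a1 do.

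**Figure D2:**
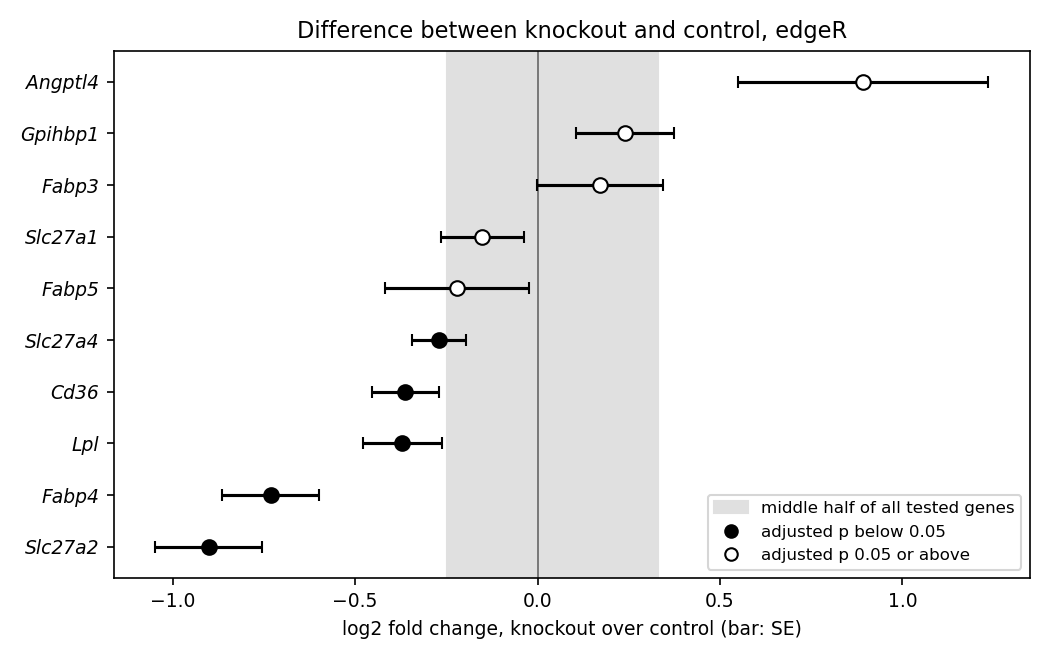
Log2 difference of knockout over control with its SE for the 10 genes, ordered by value (filled points, edgeR adjusted p below 0.05; grey band, middle 50% of all tested genes, from -0.247 to 0.330). The 5 filled points lie below 0, and Angptl4, at 0.89, is an open point with the widest bar.

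Among the genes acting at the capillary, the lipase was lower, its anchor was not called and its inhibitor was higher in each knockout library without passing the test. Lpl (chromosome 8, 68880555 to 68906932, plus strand, mm10) measured 3550.2, 3674, 4639 and 4380 CPM in controls 511, 514, 517 and 518. The knockouts 512, 513, 515 and 516 measured 3475, 2984, 3093 and 3006 CPM. Every knockout was below every control, by a narrow margin between control 511 and knockout 512. The log2 difference was -0.37 (SE 0.108, edgeR adjusted p = 0.0272). That call ended without control 517 (edgeR adjusted p = 0.0647), control 518 (0.076), knockout 513 (0.0743), knockout 515 (0.0676) or knockout 516 (0.0718), with upper quartile factors (0.0879) and with library sizes alone (log2 difference -0.18, 0.251).

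Gpihbp1 (chromosome 15, 75596658 to 75598213, plus strand), without which lipase does not reach the capillary lumen, measured 77.4 to 110.3 CPM in controls and 93.2 to 128.9 CPM in knockouts. The groups overlapped and the gene was not called (log2 difference 0.24, SE 0.134, edgeR adjusted p = 0.191). With library sizes alone it was called higher (log2 difference 0.44, edgeR adjusted p = 0.0271). Of a list of 16 endothelial markers 3 (Cldn5, Esam and Erg) were higher and 0 lower. That share of 18.75% is near the 15.4% of all genes called higher. The list had a median log2 difference of 0.20 and a summed level of 1806 to 2242 CPM in controls and 2131 to 2654 CPM in knockouts. Within a library the ratio of Gpihbp1 to the mean of those 16 markers overlapped between the groups, at 0.298 ± 0.200 (log2, SD, n = 4) and 0.365 ± 0.138 (log2, SD, n = 4), a difference of 0.067 (two-sided exact permutation p = 0.571).

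Angptl4 (chromosome 17, 33774900 to 33781575, minus strand), a secreted inhibitor of lipase that is induced by fasting, measured 540.9, 391.6, 351.7 and 128.2 CPM in controls 511, 514, 517 and 518. Knockouts measured 658, 581, 643 and 739 CPM, all above the highest control. Control 518 was the lowest by far, and the coefficient of variation was 48.3% in controls against 9.96% in knockouts. The log2 difference of 0.89 (SE 0.343) gave an edgeR adjusted p of 0.0717. Without control 518 it was smaller but called (log2 difference 0.64, edgeR adjusted p = 0.0162), and it was also called without control 511 (1.17, edgeR adjusted p = 0.0291), with library sizes alone (1.10, edgeR adjusted p = 0.0291) and by limma-voom with sample weights (0.87, adjusted p = 0.0301). In the authors' deposited table Angptl4 has a log2 difference of 0.87 and an FDR of 0.0183.

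Ratios of 2 genes within a library, which no scaling between libraries can move, were compared for 8 pairs. They restate the differences of their 2 genes and are not independent of them. On the log2 scale the Angptl4 to Lpl ratio of counts was -2.71, -3.23, -3.72 and -5.09 in controls and -2.40, -2.36, -2.27 and -2.02 in knockouts. All knockouts were above all controls, with a mean difference of 1.43, which is 2.69-fold. This ratio combines the opposite differences already given for both genes and is read as a description. Its two-sided exact permutation p was 0.0286, the smallest that 4 against 4 libraries can give (adjusted 0.0762). Without control 518 the difference was 0.959. The ratio of Lpl to Gpihbp1 was 5.41 ± 0.416 in controls and 4.803 ± 0.291 in knockouts (log2, SD, n = 4 each), and the groups overlapped (two-sided exact permutation p = 0.0857, and 0.171 after Benjamini-Hochberg adjustment over the 8 ratios).

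**Figure D3:**
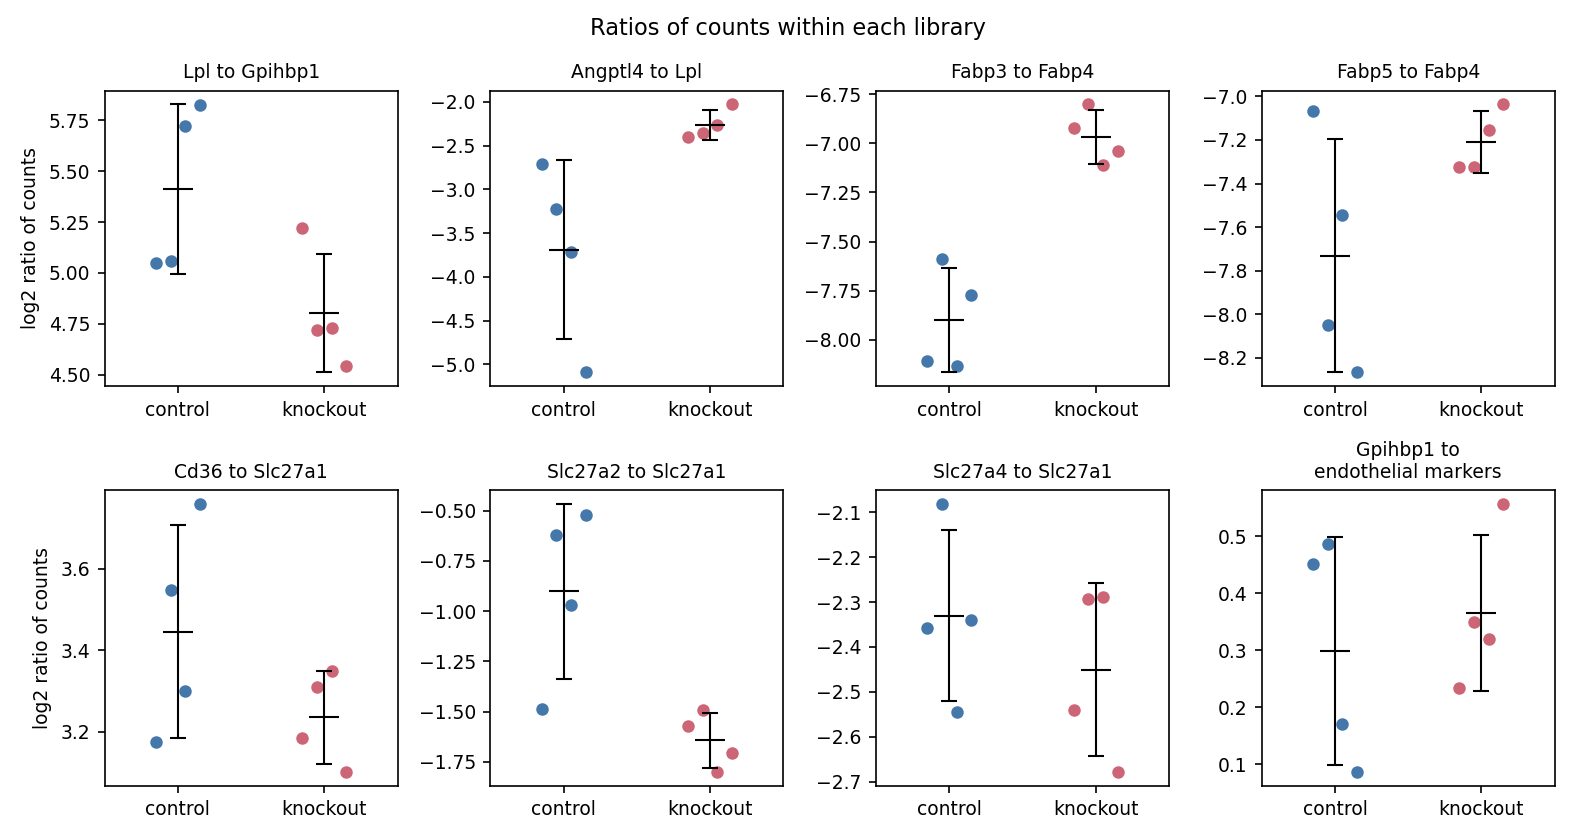
Log2 ratio of counts of pairs of genes within each library (blue, controls; red, knockouts; bars, mean ± SD), with axes that do not start at 0 because they are logarithmic. The groups are apart for Angptl4 to Lpl, Fabp3 to Fabp4 and Slc27a2 to Slc27a1 and overlap for the other 5 ratios.

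Of the membrane transporters, Slc27a2 differed most. Slc27a2 (chromosome 2, 126553024 to 126588243, plus strand), which activates very long-chain fatty acids and is best known from liver and kidney, measured 108.0, 146.9, 148.4 and 174.0 CPM in controls 511, 514, 517 and 518. The knockouts 512, 513, 515 and 516 measured 83.1, 78.0, 63.7 and 84.2 CPM, all below the lowest control. The log2 difference was -0.90 (SE 0.146, edgeR adjusted p = 0.0021), and it was called in all 17 alternatives, between -1.02 and -0.71. Of its exon bases 18.2% lie opposite Gm26697, a noncoding gene, and counting without strand cannot separate the pair. Of 8 hepatocyte markers 6, among them Alb, were below 1 CPM in every library. Nearly all of the list's summed level was Cyp2e1, at 48.7 to 247 CPM in controls and 29.1 to 88.6 CPM in knockouts, overlapping and not called.

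Cd36 (chromosome 5, 17781690 to 17849792, minus strand) measured 2736, 2646, 2866 and 3384 CPM in controls 511, 514, 517 and 518. In knockouts 512, 513, 515 and 516 it measured 2247, 2178, 2261 and 2359 CPM, and the groups did not overlap. It was lower by a log2 difference of -0.36 (SE 0.0921, edgeR adjusted p = 0.0156). The call was lost with upper quartile factors (-0.26, edgeR adjusted p = 0.0554) and with library sizes alone (-0.17, 0.218). The table has 5 Cd36 rows that share most exons, and their totals differ by at most 1.496%, so the values cannot say which first exon was used.

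Slc27a4 (chromosome 2, 29802680 to 29817522, plus strand), a transporter and synthetase of long-chain fatty acids found in many tissues, showed the smallest of the called differences. It measured 59.2, 53.4, 49.85 and 49.4 CPM in controls and 42.5, 44.8, 45.4 and 42.9 CPM in knockouts, with no overlap. The log2 difference was -0.27 (SE 0.0734, edgeR adjusted p = 0.0205). The call ended without knockout 512 (edgeR adjusted p = 0.05001) or knockout 516 (0.0582), with upper quartile factors (-0.17, 0.111) and with library sizes alone (-0.07, 0.452). With a skeletal muscle score as covariate the log2 difference was -0.26, close to the value without it, but its SE was larger (0.106) and it was not called (edgeR adjusted p = 0.115). The authors' deposited table gives it an FDR of 0.109.

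Slc27a1 (chromosome 8, 71568927 to 71586708, plus strand), the insulin-responsive family member of fat and muscle, was not called. Controls ranged from 226.1 to 303.2 CPM and knockouts from 219.7 to 275.0 CPM, with a log2 difference of -0.15 (SE 0.113, edgeR adjusted p = 0.328) that became 0.05 with library sizes alone. Within libraries the ratio of Slc27a2 to Slc27a1 was lower in each knockout than in any control, at -0.90 ± 0.437 against -1.64 ± 0.137 (log2, SD, n = 4 each). The margin was narrow, with control 511 at -1.489 and knockout 513 at -1.494. The difference of -0.74 had an exact permutation p of 0.0286, the smallest that 4 against 4 libraries can give, which rests on that margin (adjusted 0.0762). The ratios of Slc27a4 and of Cd36 to Slc27a1 differed by -0.12 and -0.21 (exact permutation p = 0.486 and 0.257) and overlapped between the groups. Other Slc27 members were scarce: Slc27a3 measured 3.27 ± 0.267 CPM in controls (SD, n = 4), and Slc27a5 and Slc27a6 did not reach 1 CPM in any library.

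Among the intracellular carriers Fabp4 was lower, and neither Fabp3 nor Fabp5 was called. Fabp4 (chromosome 3, 10204343 to 10208576, minus strand), long used as a marker of adipocyte differentiation, measured 8621, 9048, 9717.5 and 12628 CPM in controls 511, 514, 517 and 518. The knockouts 512, 513, 515 and 516 measured 5659, 5510.4, 6534 and 6394 CPM. All knockouts were below the lowest control, and control 518 was the highest library. The log2 difference was -0.73 (SE 0.133, edgeR adjusted p = 0.00355), and the gene was called in all 17 alternatives, between -0.84 and -0.54. Fabp4 held 55.4% of the summed CPM of the 10 genes in controls and 47.6% in knockouts, a share not scaled by length.

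Fabp3 (chromosome 4, 130308778 to 130315463, plus strand) ranged from 31.2 to 57.7 CPM in controls and from 46.6 to 49.5 CPM in knockouts. The knockouts lay inside the range of the controls, with a coefficient of variation of 2.68% against 28.5%, and the log2 difference was 0.17 (SE 0.173, edgeR adjusted p = 0.470). Relative to Fabp4 in the same library, Fabp3 was higher in each knockout than in any control, with log2 ratios of -7.90 ± 0.265 in controls and -6.97 ± 0.136 in knockouts (SD, n = 4 each). That difference of 0.93 had an exact permutation p of 0.0286 (adjusted 0.0762). Muscle also expresses Fabp3. The 16 skeletal muscle markers, all above 0 in every library, summed to 308 to 6378 CPM in controls and 7582 to 16505 CPM in knockouts. All were tested and all had positive log2 differences, from 0.77 to 2.44 with a median of 1.56. Levels did not overlap between the groups for 12 of them. Of the 16, 1 (Myh2) was called higher, a share of 6.25% beside 15.4% of all genes. With a muscle score as covariate Fabp3 was again not called, and 4 of the 5 genes called lower were called, without Slc27a4. That score (mean log2 CPM of the markers) was 3.81 to 8.16 in controls and 8.42 to 9.55 in knockouts, without overlap. The fit with this covariate therefore cannot separate muscle content from the knockout. Of the 50-base windows of the Fabp3 transcript 43.7% also occur in other genes, chiefly the pseudogene Fabp3-ps1, so its count is uncertain.

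Fabp5 (chromosome 3, 10012606 to 10016610, plus strand) ranged from 34.2 to 64.3 CPM in controls and from 34.4 to 48.8 CPM in knockouts, which overlap. It was not called (log2 difference -0.22, SE 0.198, edgeR adjusted p = 0.415), and 22.5% of its 50-base windows occur in other genes, so this count is uncertain as well. The Fabp5 to Fabp4 ratio differed by 0.52 on the log2 scale with overlapping groups (exact permutation p = 0.143). Macrophages express Fabp5, and of 12 macrophage markers 4 (Cd68, Csf1r, C1qa and C1qb) were higher and 0 lower, a share of 33.3% beside 15.4% of all genes called higher. The macrophage markers summed to 122.1 to 226.5 CPM in controls and 219.6 to 330.3 CPM in knockouts. Their part in the Fabp5 values was not tested.

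Between genes, levels can be compared only per length of transcript. Per kilobase, Fabp4 stood first in controls, at 15828 ± 2859 CPM per kilobase (SD, n = 4), with no overlap with Lpl at 1008 ± 132. Cd36 followed at 851 ± 96.6 and overlapped Lpl in controls, while in knockouts Lpl (779 ± 56.7) stood clear of Cd36 (662 ± 21.9). Below Cd36, without overlap, came Angptl4, Gpihbp1, Slc27a1, Fabp3, Slc27a2 and Fabp5, each overlapping the next of these in controls, at means from 187.0 down to 51.9 CPM per kilobase. Slc27a4 was last in both groups, at 13.3 ± 1.14 and 11.03 ± 0.359. In knockouts Angptl4 stood apart above Gpihbp1 (347 ± 34.6 against 143.4 ± 18.8 CPM per kilobase), and Slc27a2, at 33.9 ± 4.14, fell below Fabp5, at 44.5 ± 7.93, without overlap. The highest and the lowest mean, of Fabp4 and Slc27a4, were 1189.8-fold apart in controls.

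**Figure D4:**
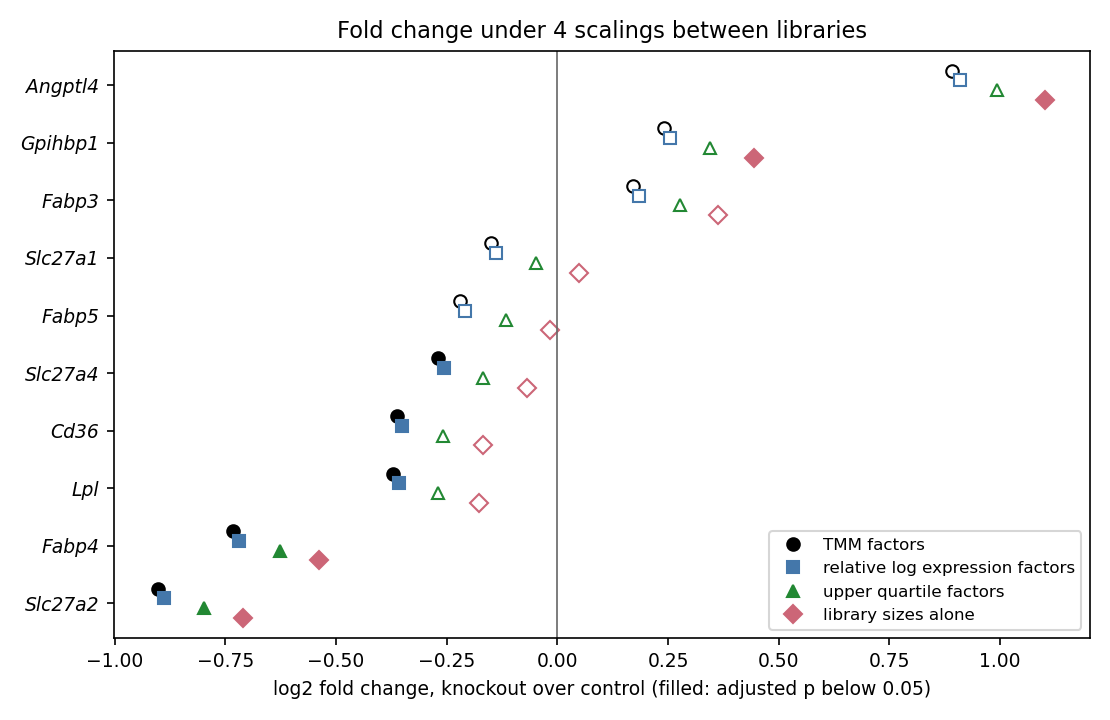
Log2 difference of the 10 genes under 4 ways to scale libraries to each other (filled symbols, edgeR adjusted p below 0.05). Fabp4 and Slc27a2 are filled and below 0 under all 4; Lpl, Cd36 and Slc27a4 are filled with TMM and relative log expression factors, and Slc27a1 changes sign with library sizes alone.

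Levels of adipocyte markers are given beside these results. Of 10 general adipocyte markers 5 (Lipe, Pnpla2, Pparg, Cidec and Acvr1c) were lower and 0 higher, a share of 50% beside 18.9% of all genes called lower. The list had a median log2 difference of -0.31 and a summed level of 12051 to 14021 CPM in controls and 9610 to 11249 CPM in knockouts. Of 10 brown adipocyte markers 7 were lower and 0 higher, a share of 70% beside the same 18.9% (median -0.48, summed 8782 to 11727 CPM in controls and 5784 to 6302 CPM in knockouts). In whole tissue, fewer adipocytes and less RNA of a gene per adipocyte cannot be told apart. As a comparison added after these values were seen, each of the 10 genes was set against the mean log2 count of the 10 general adipocyte markers of the same library. Measured so, Cd36 and Lpl differed by 0.00381 and -0.00403 between the groups (exact permutation p = 1 and 0.943), and Slc27a4 by 0.094 (0.543). Gpihbp1 differed by 0.61 (exact permutation p = 0.0571, adjusted 0.114), Slc27a1 by 0.21 (0.114) and Fabp5 by 0.16 (0.429), all with overlapping groups. Fabp4 and Slc27a2 differed by -0.36 and -0.53 and Fabp3 and Angptl4 by 0.58 and 1.42, each with no overlap between groups and the smallest possible exact permutation p of 0.0286 (0.0714 adjusted over the 10 genes). The reference is itself lower in knockouts, as 5 of its markers were. Of 12 fibroblast and preadipocyte markers 1 (Cd34) was higher and 0 lower, a share of 8.33% beside 15.4% of all genes called higher. These markers summed to 1091 to 2253 CPM in controls and 1946 to 2934 CPM in knockouts.

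**Figure D5:**
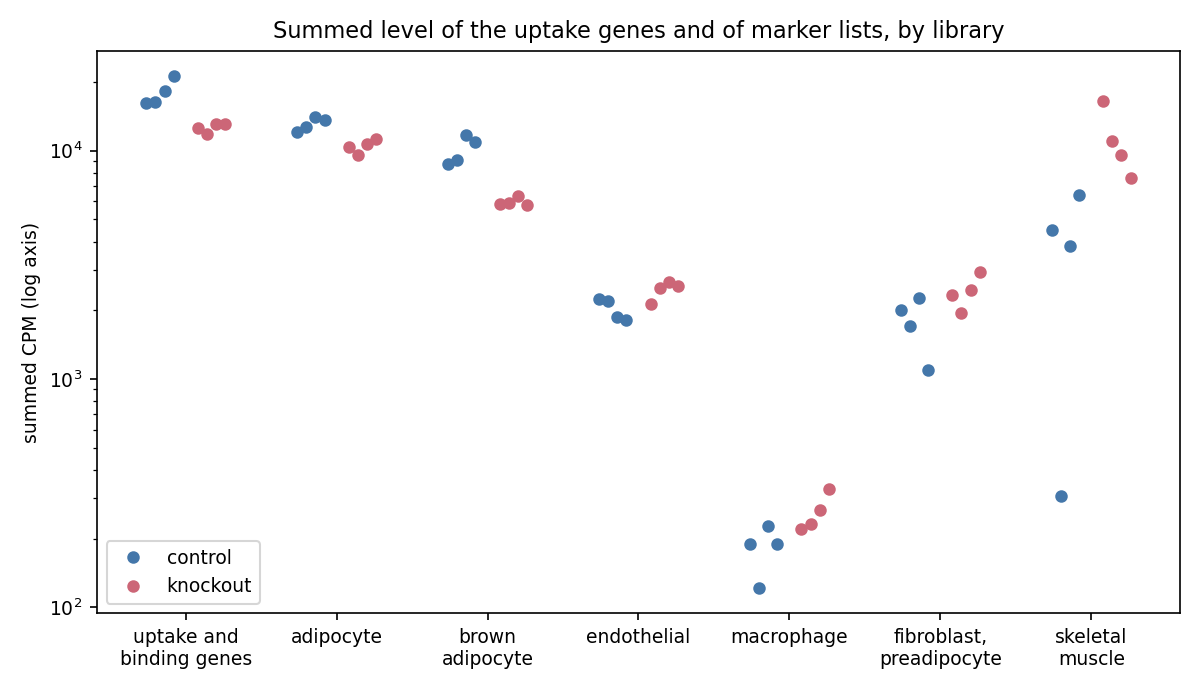
Summed CPM (log axis) of the 10 uptake and binding genes and of 6 marker lists in each library (blue, controls; red, knockouts). The sums of the uptake genes, at 16121 to 21169 CPM in controls and 11793 to 13126 CPM in knockouts, and of both adipocyte lists are lower in knockouts without overlap, while skeletal muscle markers are higher without overlap and control 514 has the least of them (308 CPM). Sums follow the most abundant genes: mean Fabp4 was 10003 CPM in controls and 6024 CPM in knockouts, and mean Ucp1 4481 and 1377 CPM. Among the uptake genes and both adipocyte lists, Angptl4, Gpihbp1, Fabp3, Ppara and Dio2 had higher means in knockouts.

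Wider lists of the pathway, with 51 of 65 entries tested, held 5 genes called higher and 10 called lower, a share of 29.4% beside the 34.4% of all genes. With library sizes alone the split was 12 higher and 5 lower, and with upper quartile factors 7 and 8. In the list of lipoprotein hydrolysis 4 of 21 tested genes were higher and 5 lower (median log2 difference -0.08). Sdc1, a heparan sulfate proteoglycan that binds lipase and lipoproteins, was at 7.75 ± 0.229 CPM in controls and 12.5 ± 0.744 CPM in knockouts (log2 difference 0.69, SE 0.0911, edgeR adjusted p = 0.00084). Lrp1, a receptor for lipoprotein remnants, was higher by a log2 difference of 0.45 (edgeR adjusted p = 0.0084), and Lmf2, a relative of the lipase maturation factor, by 0.29 (0.0195, and 0.0551 without knockout 513). Lmf1, the endoplasmic reticulum factor needed to fold Lpl, was lower, at 64.0 ± 7.37 CPM in controls and 45.2 ± 3.05 CPM in knockouts (log2 difference -0.50, SE 0.0947, edgeR adjusted p = 0.00419). Pcsk7, a proprotein convertase with 11.5% of its exon bases opposite other genes, had -0.34 (edgeR adjusted p = 0.0136), a call lost with library sizes alone (0.227). Apoe and Apoc1 were chosen for mention once their values had been seen. The apolipoprotein gene Apoe was higher by 0.73 (edgeR adjusted p = 0.0289), a call lost without control 514 (0.0558) or knockout 513, 515 or 516 (0.0563, 0.0581 and 0.0806). The apolipoprotein gene Apoc1 was lower by a log2 difference of -1.22 (edgeR adjusted p = 0.0155), with overlapping groups. With the muscle score as covariate neither was called (0.109 for Apoe, 0.0567 for Apoc1).

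In the list of membrane and capillary uptake 1 of 21 tested genes was higher and 3 lower (median log2 difference -0.04). The higher was Got2, the mitochondrial aspartate aminotransferase that has also been described as a fatty acid binding protein of the plasma membrane. It measured 29.9, 27.7, 30.5 and 44.5 CPM in controls 511, 514, 517 and 518 and 219.4, 219.5, 234.7 and 245.7 CPM in knockouts 512, 513, 515 and 516, a 6.93-fold rise far outside the spread of either group (log2 difference 2.79, SE 0.149, edgeR adjusted p = 2.66e-05). Of its 50-base windows 51.0% also occur in other genes, chiefly pseudogenes of Got2, and 16.2% of its exon bases lie opposite Gm45760, so this count is uncertain. The lower genes were Lypla1, a depalmitoylating thioesterase (log2 difference -0.45, edgeR adjusted p = 0.000554), Zdhhc5, a palmitoyltransferase that acts on Cd36 (-0.30, 0.00884), and the lysosomal scavenger receptor relative Scarb2 (-0.32, 0.0165). The calls of Zdhhc5 and Scarb2 were lost with library sizes alone (0.269 and 0.318), and that of Scarb2 with upper quartile factors (0.0579) and without knockout 516 (0.0509). Of Lypla1's exon bases 25.8% are shared with another gene model on the same strand.

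In the list of intracellular carriers 0 of 9 tested genes were higher and 2 were lower (median log2 difference -0.14). Scp2, the sterol carrier protein of peroxisomes, was lower with a log2 difference of -0.61 (SE 0.128, edgeR adjusted p = 0.0069), and 41.4% of its windows occur in other genes. Dbi, the acyl-CoA binding protein, was at 1775 ± 371 CPM in controls and 1250.04 ± 52.8 CPM in knockouts (log2 difference -0.51, SE 0.141, edgeR adjusted p = 0.0227), with overlapping groups. Its call was lost with upper quartile factors (0.059), library sizes alone (0.0903), the muscle covariate (0.131) and without knockout 512, 513 or 515 (0.0509, 0.0628 and 0.0533). Of the other Fabp family genes, Fabp1, Fabp2 and Fabp6 had a count of 0 in all 8 libraries, and Fabp7, Fabp9, Fabp12 and Pmp2 stayed below 1 CPM.

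The authors' deposited table, made by edgeR on 30521 transcript rows of which 17.4% have an FDR below 0.05, calls 4 of the 10 genes lower and 1 higher. In that table the log2 differences are -0.92 for Slc27a2 (FDR 1.03e-06), -0.75 for Fabp4 (4.04e-05), -0.39 for Lpl (0.0426) and -0.38 for Cd36 (0.0367). The differences from the calls above are Slc27a4 and Angptl4, whose values in the authors' deposited table are given with those genes.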

How the data were processed

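RNA of brown adipose tissue of 4 control and 4 knockout mice was extracted with Trizol, per the labels' protocols. TopHat2 version 2, HOMER and edgeR and the build mm10 are named in the submitters' processing notes; the series' design text also names DESeq. The estimated counts deposited by the authors are unadjusted exon counts on both strands from HOMER's analyzeRepeats.pl on RefSeq models, per the file headers; 36.9% of values are not whole (multiples of 0.5), so they were rounded. A second table holds a signal deposited by the authors (columns with equal totals, as the values show) with the authors' fold (ratio), log2 fold change, log2 CPM, p-value and FDR, per the file headers.

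Rows without a symbol (829 of 30521, at most 0.0824% of a library's counts) were left out, and the row with the highest total stood for each of 23372 genes, leaving 23683798 to 28570446 counts per library. edgeR 4.0.16 (R 4.3.3) was run with filterByExpr at a minimum count of 10, TMM factors and the two-sided quasi-likelihood test, threshold 0.05. SE is the size of the log2 fold change divided by the square root of F. On simulated data (knockout against control, 14072 genes, a common dispersion, 50 changed per fold) it recovered 2% of 1.25-fold, 26% of 1.5-fold, 92% of 2-fold and 100% of 4-fold changes, with 6 false calls. Ratios are log2 of counts plus 0.5, tested by exact permutation (scipy 1.17.1). No pair of libraries agreed within sampling noise (lowest chi-square per degree of freedom 13.1).

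The genes and lists were chosen with earlier results of these data known. Of 160 list entries 159 were matched, 4 by an alias. Some genes of the wider lists are counted but not reported here by name. The text names the 10 genes, Kdm1a, Ucp1, and up to 3 called genes per wider list and direction with the smallest p, and for some of the 10 the 3 nearest profiles. Alternatives were other scalings, filters, DESeq2 1.42.0, limma-voom (limma 3.58.1), summed rows, a muscle score as covariate and leaving out each library. Sequences are from RefSeq; overlaps and shared 50-base windows from GENCODE M21, both of the mouse build GRCm38 (mm10). Libraries carry different numbers, so nothing pairs them.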

Additional observations from a re-analysis of the deposited data

Results flagged for a closer look

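Of 108 groups of 4 libraries examined (levels of the named genes, the 8 ratios, summed lists and the ratios to adipocyte markers), 4 held a library whose gap to its neighbour passed Dixon's 95% limit for groups of this size. Chance alone passes that limit in about 1 in 20 independent groups. The groups here share genes and libraries, so 4 of 108 cannot be judged against that rate. Angptl8, a lipase inhibitor listed as Gm6484 and chosen for mention once its values had been seen, measured 234.1 CPM in control 518, far above the next control at 62.9. Control means were 99.0 ± 90.3 CPM and knockout means 36.5 ± 9.69 CPM (SD, n = 4 each), with no overlap and no call (log2 fold change -1.44, edgeR adjusted p = 0.0561). Without control 518 the log2 fold change was -0.54 (edgeR adjusted p = 0.0781), and calls were made without control 511, 514 or 517 (0.0387, 0.049 and 0.0415), with the muscle covariate (0.0464) and by DESeq2 (0.0478). Control 518 was also the library with the lowest Angptl4 and the highest Fabp4 and Cd36, though none of these levels passed that limit. Got2 measured 44.5 CPM in the same control against 30.5 in the next, still far below every knockout. Relative to the adipocyte markers, knockout 513 stood apart for Cd36 (log2 ratio 2.15, next 2.03) and for Fabp3 (-3.31, next -3.55).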

How the results depend on the processing

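No paired analysis was possible because the groups share no replicate number. Over all genes, 4871 were called, and 3168 (1392 higher, 1776 lower) with the skeletal muscle score as covariate, the cause of which was not tested; the other scalings, filters and tools gave 4519 to 5436, and leaving out 1 library 3427 to 4770.0. Of the 10 uptake and binding genes 5 were called, against 2 with upper quartile factors and 4 with library sizes alone, where calls over all genes were 4077 higher and 930 lower, against 2189 and 2682. Leaving out each library gave 3 to 6 called, with 3 without knockout 516. Of the wider lists 15 genes were called, and 12 to 19 over all alternatives, the lowest without knockout 513 or 516. Fabp4 and Slc27a2 kept direction and call in all 17 alternatives, Cd36 in 15, Slc27a4 in 12 and Lpl in 10, and none of the 5 changed direction. Fabp3 and Fabp5 were called in 0 of 17 and Slc27a1 in 0 of 17. No ratio passed the threshold after adjustment, and none did with a pseudocount of 5 or with summed rows. With 4 against 4 libraries the exact p cannot fall below 0.0286 before adjustment over 8 ratios. Staying above the threshold was therefore nearly fixed in advance. Leaving out 1 library moved Angptl4 to Lpl between 0.959 and 1.75 and Fabp3 to Fabp4 between 0.857 and 1.04. It moved Slc27a2 to Slc27a1 between -0.939 and -0.616. In these designs of 3 against 4 no exact p can pass. In simulated data of this size, with a common dispersion for all genes, 26% of 1.5-fold changes were recovered. That rate does not carry over to single genes, as Slc27a4 was called here at 1.21-fold. The lack of a call for Fabp5, Slc27a1, Fabp3 or Gpihbp1 does not show equal levels.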

Other observations

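Of the 10 genes, 10 had a larger coefficient of variation in controls than in knockouts, as did 72.9% of the 14178 genes tested. The gap was widest for Fabp3 (28.5% against 2.68%) and Angptl4 (48.3% against 9.96%), and Cd36 had 11.4% against 3.31%.

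Profiles over the 8 libraries were compared as log2 CPM centred on the control mean, by Euclidean distance, against 10748 candidates averaging 5 CPM or more. The nearest to Angptl4 were Unc119, Per1 and Zfp36, at distances of 0.662, 0.759 and 0.790 beside a median of 2.81 over all genes. Nearest to Fabp4 were Mkks, Coq3 and Mrpl46 (0.182, 0.222 and 0.232, median 1.47). For Lpl they were Ypel2, Mcrs1 and Ankrd17 (0.118, 0.144 and 0.146, median 0.888), and for Cd36 Ahsa2, Pex11a and Tcp1 (0.0884, 0.122 and 0.123, median 0.843). Slc27a2 had Slc19a1, Adhfe1 and Glyctk (0.318, 0.344 and 0.350, median 1.81). These distances are descriptions over libraries that fall into 2 groups.

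All 8 libraries had little Xist (at most 0.281 CPM) and Ddx3y at 96.2 to 123.9 CPM.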
